A study of Mus musculus with 24 samples.

Results

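Excitation-contraction coupling is the chain of steps that turns an electrical signal at the muscle cell surface into calcium release inside the cell. The 10 genes described here encode its core, and they were taken by symbol (Cacna1s, Ryr1, Ryr3, Trdn, Jph1, Jph2, Casq1, Casq2, Atp2a1 and Atp2a2) from a table of 24043 mouse genes. All 10 were in the table. The choice used no measured value of these libraries in its rule.

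The cells were C2C12, an established mouse myoblast line that divides as single cells and fuses into multinucleated myotubes when serum is withdrawn. The study compared growth medium (GM, with 10% fetal bovine serum) with differentiation medium (DM, with 2% horse serum and an insulin, transferrin and selenium supplement), each at 21% oxygen (NOR, called normoxic here) or 2% oxygen (HYP, called hypoxic). RNA-seq was made from 2 biological replicates, A and B, of each of the 4 groups, and the 8 chromatin and 8 input libraries of the series were not analysed here. All groups come from 1 cell line, and the labels give medium changes up to day 4 of differentiation but no day of harvest. Levels are FPKM, fragments scaled by transcript length and by the mapped fragments of the library, so that levels of different genes can be compared per length.

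In skeletal muscle the voltage sensor of the transverse tubule, whose pore-forming subunit is Cacna1s, touches the ryanodine receptor Ryr1 in the sarcoplasmic reticulum and opens it directly when the membrane depolarises. The junctophilins Jph1 and Jph2 hold the tubule and the reticulum together at this junction, triadin (Trdn) anchors the calcium-binding calsequestrins Casq1 and Casq2 at the release channel, and the SERCA pumps Atp2a1 and Atp2a2 return calcium to the store. Cardiac muscle uses a related machinery with other family members, and embryonic skeletal muscle shares some of them.

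The promoter sequences are shown first because 9 of the 10 genes moved together in differentiation medium at 21% oxygen. RefSeq (GRCm38.p6) gave a window of 250 bases before to 50 after a transcript start for 6 of the 10 genes, Ryr1, Cacna1s, Casq1, Casq2, Jph2 and Atp2a1. Each window was searched on both strands for CAGCTG and CAGGTG (E-boxes, the kind of site bound by myogenic bHLH factors), for the MEF2 element and the CArG box (sites of the MEF2 factors and of serum response factor), and for ACGTG and GCGTG (the core of hypoxia response elements). None of the motifs overlapped another in these windows. The 250 upstream bases of the 5 windows with an E-box or a MEF2 element follow, written 5′ to 3′ on the gene's strand, with those matches in capitals. The Cacna1s window is chr1:136052561-136052810 on the plus strand, Casq1 is chr1:172219896-172220145 on the minus strand, Jph2 is chr2:163397994-163398243 on the minus strand, Casq2 is chr3:102086165-102086414 on the plus strand and Atp2a1 is chr7:126463074-126463323 on the minus strand.
Cacna1s: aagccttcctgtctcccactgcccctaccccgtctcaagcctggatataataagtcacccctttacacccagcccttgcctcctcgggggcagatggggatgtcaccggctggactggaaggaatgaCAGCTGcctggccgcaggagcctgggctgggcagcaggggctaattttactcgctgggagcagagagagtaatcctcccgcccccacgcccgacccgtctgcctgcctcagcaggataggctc
Casq1: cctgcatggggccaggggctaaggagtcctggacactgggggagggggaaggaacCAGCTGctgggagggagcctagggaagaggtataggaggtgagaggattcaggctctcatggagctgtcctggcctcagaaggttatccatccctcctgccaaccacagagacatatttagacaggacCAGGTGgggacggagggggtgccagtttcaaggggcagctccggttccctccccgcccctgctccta
Jph2: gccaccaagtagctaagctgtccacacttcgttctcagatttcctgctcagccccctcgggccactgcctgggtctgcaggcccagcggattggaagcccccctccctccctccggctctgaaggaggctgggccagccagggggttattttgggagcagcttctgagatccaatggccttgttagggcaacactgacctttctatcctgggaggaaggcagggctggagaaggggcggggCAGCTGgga
Casq2: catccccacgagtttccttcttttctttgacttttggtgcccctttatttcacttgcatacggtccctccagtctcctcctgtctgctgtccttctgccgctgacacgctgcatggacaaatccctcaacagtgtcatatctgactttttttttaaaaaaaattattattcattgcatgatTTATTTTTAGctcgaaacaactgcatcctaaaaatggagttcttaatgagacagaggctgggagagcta
Atp2a1: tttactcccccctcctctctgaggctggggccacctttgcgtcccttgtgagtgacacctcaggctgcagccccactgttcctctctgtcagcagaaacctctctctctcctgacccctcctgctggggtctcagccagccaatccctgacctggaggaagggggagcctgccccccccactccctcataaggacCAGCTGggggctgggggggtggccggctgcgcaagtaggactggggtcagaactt

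CAGCTG was present in the windows of 4 of the 6 genes. It began 123 bases before the start of Cacna1s, 195 bases before that of Casq1, 9 bases before that of Jph2 and 55 bases before that of Atp2a1. Jph2 has a second window in the table, which held CAGCTG 29 bases before its start. Of all 32851 windows in the table, which belong to 27025 genes, 16.3% held this hexamer. CAGGTG was in the Casq1 window alone, 67 bases before the start, and in 20.2% of all windows. The Casq2 window held a MEF2 element on the opposite strand, 69 bases before the start, as did 1.86% of all windows. GCGTG was found on the opposite strand 39 bases before the start of Cacna1s and 146 bases before that of Casq2, and in 32.4% of all windows. ACGTG (19.6% of all windows) and the CArG box (1.63%) matched none of the 6 windows, and the Ryr1 window held no match to any motif searched. A match is a stretch of letters and not a shown binding site, and a missing match says only that these letters are not in this window.

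**Figure D1:**
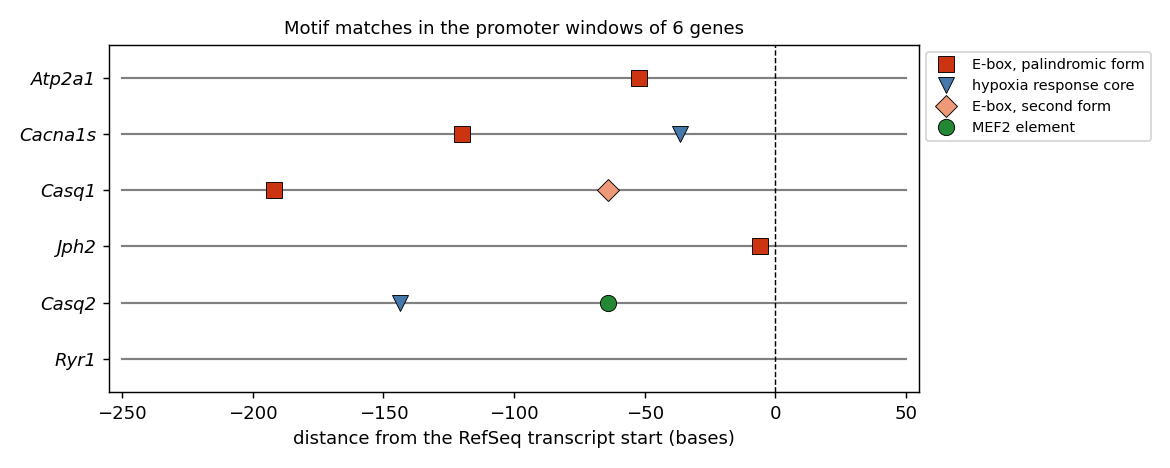
Motif matches along the 6 promoter windows, with the distance from the RefSeq transcript start in bases on the horizontal axis and the start marked by a dashed line. The palindromic E-box (CAGCTG) lies in the windows of Atp2a1, Cacna1s, Casq1 and Jph2, between 195 and 9 bases before the start, and the MEF2 element lies in that of Casq2.

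Differentiation medium at 21% oxygen was compared with growth medium first, which asks how the machinery is laid down during normal differentiation. Of the 10 genes, 9 rose and none fell, against 25.5% called higher and 41.0% called lower among the 12389 genes tested by limma at a Benjamini-Hochberg adjusted p under 0.05. The exception was Ryr3. The median log2 change of the 10 genes was 3.89, beside -0.20 over all genes tested. The 2 normoxic DM libraries lay above the 2 normoxic GM libraries for every one of the 10, but the share of all tested genes separated in this way was not computed. Summed over the 10 genes, the level went from 72.7 and 74.0 FPKM (A and B) in normoxic GM to 1222 and 1256 FPKM in normoxic DM. Such values come from bulk RNA, in which fewer cells of a type and less RNA per cell cannot be told apart. Of the 10, Ryr1, Cacna1s, Casq1 and Trdn reached a mean of 1 FPKM (the minimum for being tested) in normoxic DM alone, so their entry into the test depended on the group in which they are high. Fitted changes are on the log2(FPKM + 1) scale, which makes the change of low genes smaller than it is. Without the added 1, and with values under 3 fragments set to that level, the median was 5.91.

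Cacna1s, the voltage sensor, stood at 0.0932 and 0.0880 FPKM in normoxic GM, at 30.1 and 30.9 FPKM in normoxic DM, at 0 in both hypoxic GM libraries and at 0.0935 and 0.0682 FPKM in hypoxic DM. Normoxic DM stood far above the rest, and the ranges of normoxic GM and hypoxic DM overlapped. Its mean level in normoxic DM was 336.6-fold that in normoxic GM (log2 change 4.85 ± 0.09 SE, limma adjusted p 1.94e-07). These low values rest on few fragments: 9 and 11 in normoxic GM, none in hypoxic GM, and 13 and 6 in hypoxic DM.

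Ryr1, the skeletal release channel, was at 0.785 and 0.600 FPKM in normoxic GM and at 40.9 and 43.5 FPKM in normoxic DM, a 60.9-fold difference of the means (log2 change 4.67 ± 0.10 SE, limma adjusted p 2.95e-07). In hypoxic GM it was at 0.0510 and 0.0236 FPKM, and in hypoxic DM at 0.184 and 0.197 FPKM. The 4 groups did not overlap, in the order normoxic DM, normoxic GM, hypoxic DM, hypoxic GM. The 6 libraries outside normoxic DM held between 7 and 192 fragments of Ryr1.

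Ryr3, the second release channel, which skeletal muscle carries mainly around birth, behaved differently. It was at 2.96 and 4.53 FPKM in normoxic GM and at 4.62 and 5.36 FPKM in normoxic DM. Hypoxic GM held 1.57 and 1.66 FPKM and hypoxic DM 0.524 and 0.823 FPKM. The normoxic groups lay next to each other without overlap, both above the hypoxic groups. The log2 change with DM at 21% oxygen was 0.35 ± 0.18 (SE) and did not pass the threshold (limma adjusted p 0.128). It did pass after median-of-ratios scaling (0.58, limma adjusted p 0.0236). Without normoxic GM replicate B the log2 change was 0.60, in a fit that holds 1 normoxic GM library. Leaving out normoxic GM replicate A instead makes the change smaller, because replicate B (4.53 FPKM) lay just under normoxic DM replicate A (4.62 FPKM). Ryr1 made up 21.0% and 11.7% of the summed FPKM of Ryr1 and Ryr3 in normoxic GM and 89.9% and 89.0% in normoxic DM.

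Trdn, which links calsequestrin to the release channel, was the least abundant of the 10 in normoxic DM, at 2.47 and 2.02 FPKM (169 and 173 fragments). In the other 6 libraries it was at 0 or at 1 fragment, with 1 fragment in normoxic GM replicate A (0.0144 FPKM) and 1 in hypoxic DM replicate B (0.0158 FPKM). The ratio of depth-scaled fragments between normoxic DM and normoxic GM was 354 (exact binomial 95% interval 63.1 to 14030, counting error only). The log2 change was 1.68 ± 0.09 (SE, limma adjusted p 1.38e-05).

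The junctophilins were present before differentiation. Jph1 was at 1.23 and 1.31 FPKM in normoxic GM, 20.5 and 20.2 FPKM in normoxic DM, 1.76 and 1.41 FPKM in hypoxic GM and 0.954 and 1.49 FPKM in hypoxic DM. Its 3 lower groups lay close together, and hypoxic DM overlapped both growth medium groups. The rise with normoxic DM was 16.0-fold in mean FPKM (log2 change 3.23 ± 0.14 SE, limma adjusted p 4.78e-06). Jph2, known best from cardiac muscle but also present in skeletal muscle, was higher throughout, at 20.1 and 17.4 FPKM in normoxic GM and 92.4 and 89.5 FPKM in normoxic DM. It stood at 8.67 FPKM in both hypoxic GM libraries and at 2.65 and 8.06 FPKM in hypoxic DM, where the replicates were far apart. The normoxic rise was 4.85-fold (log2 change 2.22 ± 0.37 SE, limma adjusted p 0.00182).

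The calsequestrins are the calcium buffers of the reticulum lumen. Casq1, the fast-fibre form, was at 0.223 and 0.344 FPKM (6 and 12 fragments) in normoxic GM and at 29.6 and 28.4 FPKM (783 and 943 fragments) in normoxic DM. Hypoxic GM held 0.0580 and 0.123 FPKM and hypoxic DM 0.103 and 0.204 FPKM, 2 to 5 fragments in each library, and these groups overlapped. Casq2, the form of cardiac and slow muscle, was at 0.564 and 0.643 FPKM in normoxic GM, 151.7 and 142.1 FPKM in normoxic DM, 0.209 and 0.111 FPKM in hypoxic GM and 0.820 and 3.71 FPKM in hypoxic DM. No groups of Casq2 overlapped, and hypoxic DM came second in its order. Mean levels rose 102.3-fold for Casq1 (log2 change 4.55 ± 0.10 SE, limma adjusted p 3.26e-07). They rose 243.5-fold for Casq2 (log2 change 6.53 ± 0.39 SE, limma adjusted p 1.79e-05). Casq1 made up 16.3% and 16.7% of the summed FPKM of the pair in normoxic DM, so the cardiac form was the more abundant calsequestrin message per length in these myotube cultures.

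Atp2a1, the fast-fibre SERCA pump, had the highest level of the 10 in normoxic DM, 540.4 and 577.5 FPKM, against 4.01 and 3.03 FPKM in normoxic GM. It was at 0.299 and 0.253 FPKM in hypoxic GM and at 0.878 and 0.484 FPKM in hypoxic DM, and no groups overlapped. The normoxic rise was 158.8-fold (log2 change 6.96 ± 0.15 SE, limma adjusted p 3.03e-07). Atp2a2, the SERCA gene of slow and cardiac muscle and, in another splice form, of most cells, was the most abundant of the 10 in each of the other 3 groups. Its levels were 42.8 and 46.0 FPKM in normoxic GM, 309.2 and 316.6 FPKM in normoxic DM, 27.4 and 27.6 FPKM in hypoxic GM and 36.8 and 45.9 FPKM in hypoxic DM. Normoxic GM and hypoxic DM overlapped. The normoxic rise was 7.05-fold (log2 change 2.79 ± 0.11 SE, limma adjusted p 2.87e-06), and the table does not separate splice forms. Atp2a1 took 8.57% and 6.18% of the summed FPKM of the pump pair in normoxic GM and 63.6% and 64.6% in normoxic DM. The annotated span of Atp2a1 overlaps Rabep2, which went the other way (20.9 and 16.4 FPKM in normoxic GM, 5.11 and 5.79 FPKM in normoxic DM), and the use of strand in counting is not given in the sources used here.

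**Figure D2:**
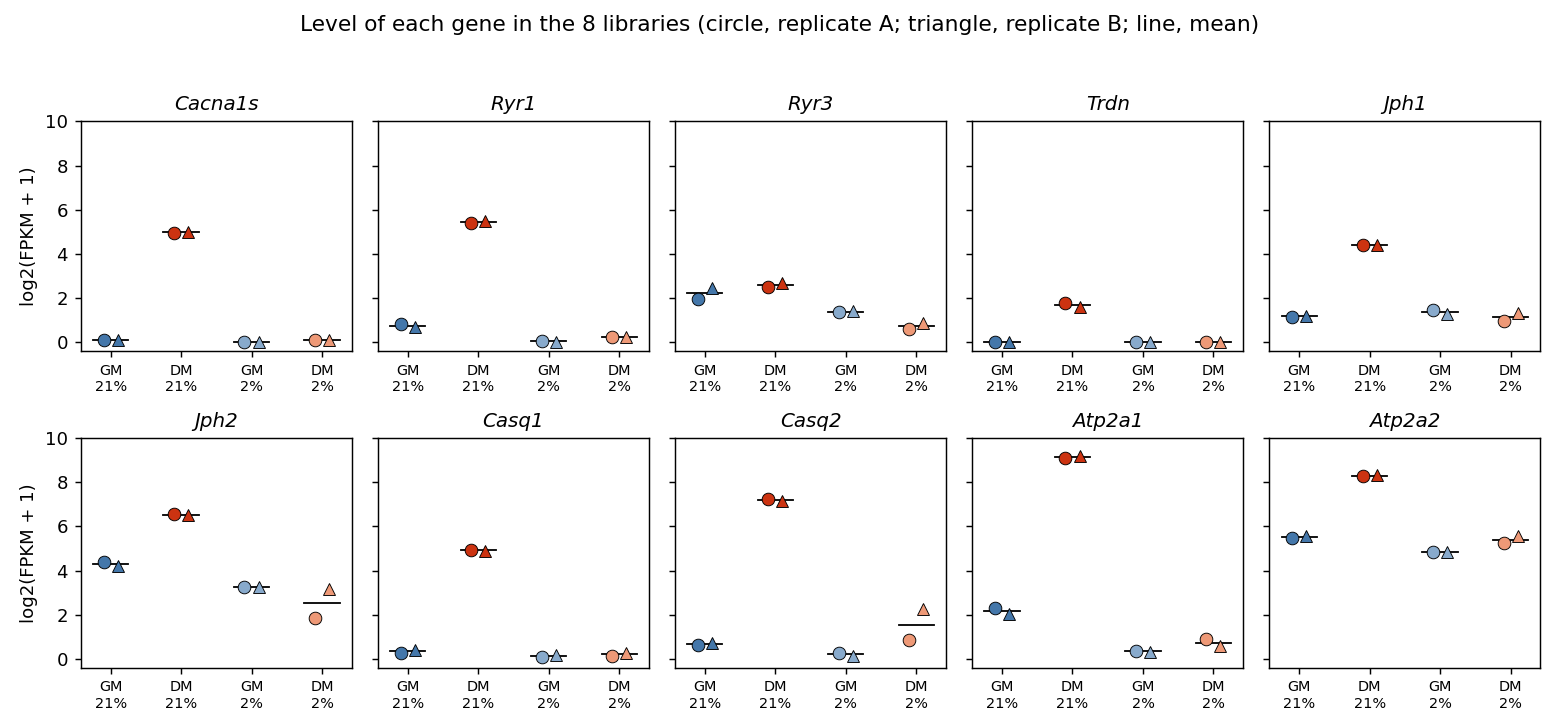
Level of each gene as log2(FPKM + 1) in the 8 libraries, with medium and oxygen on the horizontal axis, circles for replicate A, triangles for replicate B and a line at the group mean. Normoxic DM stands above the other 3 groups for each gene, by little for Ryr3, and the hypoxic DM replicates of Casq2 (0.820 and 3.71 FPKM) and Jph2 (2.65 and 8.06 FPKM) are the most widely spaced pairs.

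In normoxic DM the mean levels ran from 559.0 ± 26.3 FPKM for Atp2a1 (SD, n = 2) over 312.9 ± 5.24 for Atp2a2, 146.9 ± 6.76 for Casq2 and 91.0 ± 2.04 for Jph2 to 42.2 ± 1.83 for Ryr1. Cacna1s (30.5 ± 0.576 FPKM) and Casq1 (29.0 ± 0.841 FPKM) followed, close to each other, and then Jph1 (20.3 ± 0.250 FPKM), Ryr3 (4.99 ± 0.527 FPKM) and Trdn (2.25 ± 0.322 FPKM). Message for the pumps was thus more abundant per length than message for the release channels. In normoxic GM, by contrast, Atp2a2 and Jph2 led, and they also led in both hypoxic groups.

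The labelled cell states can be read against marker lists. Summed over 5 myotube markers (Myog, Myh3, Ckm, Acta1 and myomaker, listed as Tmem8c) the level was 6050 and 6077 FPKM in normoxic DM, 29.3 and 22.4 FPKM in normoxic GM, 2.39 and 3.02 FPKM in hypoxic GM and 14.8 and 8.73 FPKM in hypoxic DM. Myotube markers were thus low in the libraries labelled as hypoxic DM. The 5 myoblast markers summed to 779 and 766 FPKM in normoxic DM and to 56.4 and 85.9 FPKM in hypoxic DM. Summed over 10 markers of cycling cells (Mki67, Ccnb1 and others), hypoxic DM replicate A stood at 39.9 FPKM and replicate B at 243.7 FPKM, against 46.8 and 46.6 FPKM in normoxic DM and 136.4 to 296.7 FPKM in GM. Markers of cardiac muscle summed to at most 5.80 FPKM over 6 genes, with Nppa at 0 in all 8 libraries, adipocyte markers to at most 0.246 FPKM and endothelial markers to at most 0.520 FPKM. Relative depth, read from the steps between low values, ran from 0.633 (hypoxic DM replicate B) to 1 (hypoxic DM replicate A), and 3 fragments corresponded to between 0.00852 and 0.122 FPKM for the 6 members whose steps could be read.

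The same change of medium was then compared at 2% oxygen. Of the 10 genes, 2 rose (Atp2a2 and Casq2), 1 fell (Ryr3) and 7 did not pass the limma threshold, against 23.3% called higher and 17.6% called lower of all genes tested. The median log2 change was 0.10, beside 0.07 over all genes, or 0.53 without the added 1. Hypoxic DM and hypoxic GM did not overlap for 7 genes and overlapped for Casq1, Jph1 and Trdn. Of the 7, hypoxic DM lay below hypoxic GM for Ryr3 and Jph2 and above it for the others. The share of all tested genes without overlap was not computed, so the 7 are no sign of a response by most members. The count of 3 calls was the least stable of the comparisons: it was 0 without either hypoxic GM library, 1 without either normoxic DM library or without an expression filter, 6 with a pseudocount of 0.1 and 6 (3 higher, 3 lower) without hypoxic DM replicate B.

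Atp2a2 rose 1.50-fold in mean FPKM at 2% oxygen (log2 change 0.56 ± 0.11 SE, limma adjusted p 0.00793). This call was lost with only the libraries compared (limma adjusted p 0.0555) and without hypoxic GM replicate A or B (0.0519 and 0.0515). Casq2 rose 14.2-fold in mean FPKM (log2 change 1.34 ± 0.39 SE, limma adjusted p 0.0339), from 10 and 5 fragments to 44 and 126. Its log2 change was 0.65 without hypoxic DM replicate B and 2.02 without replicate A. Each of these fits holds 1 hypoxic DM library and so no spread of that group. The Casq2 call was lost without an expression filter (limma adjusted p 0.0622), with only the libraries compared (0.135) and without any single library of the other 3 groups (0.0612 to 0.141). The summed cycling markers, at 39.9 and 243.7 FPKM, also separate these hypoxic DM replicates, and their part in the result was not tested.

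Ryr3 fell by 0.65 on the log2 scale at 2% oxygen (SE 0.18, limma adjusted p 0.0298), with a 2.40-fold lower mean. The call was lost without an expression filter (limma adjusted p 0.0538) and without either normoxic DM library, either hypoxic GM library or hypoxic DM replicate A (0.0558 to 0.131). For Cacna1s, hypoxic DM held 19 fragments in all and hypoxic GM none. With each hypoxic GM library set to 3 fragments, its level was at least 3.24-fold higher in hypoxic DM, while the fitted log2 change was 0.11 ± 0.09 (SE, limma adjusted p 0.339). Ryr1 had a 5.12-fold and Atp2a1 a 2.47-fold higher mean in hypoxic DM, with log2 changes of 0.20 ± 0.10 and 0.39 ± 0.15 (SE) that did not pass (limma adjusted p 0.16 and 0.0875). All 3 passed with a pseudocount of 0.1, Cacna1s at a log2 change of 0.85 (limma adjusted p 0.0201), Ryr1 at 1.09 (0.00789) and Atp2a1 at 1.01 (0.0215). Ryr1 also passed with only the libraries compared (limma adjusted p 0.0467). Without hypoxic DM replicate B the log2 changes were 0.56 for Atp2a1, -0.40 for Jph1 and -1.41 for Jph2, in a fit without any spread of hypoxic DM. Without hypoxic DM replicate A they were 0.22, -0.06 and -0.09 in the same order, with the same limit.

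The level reached in hypoxic DM stayed far under that of normoxic DM for all of these genes. Comparing the 2 oxygen levels within differentiation medium, all 10 fell at 2% oxygen, against 27.7% called lower and 37.5% called higher of all genes tested. The median log2 change was -4.35, beside 0.15 over all genes, and -6.14 without the added 1. No gene of the 10 overlapped between these groups, and all 10 log2 changes stayed negative when hypoxic DM replicate A or B was left out. The share of all tested genes without overlap was not computed, so the count has no background. Ryr1, Cacna1s, Casq1 and Trdn passed the expression filter through normoxic DM alone, which favoured a lower level in hypoxic DM. Atp2a1 was 820.9-fold lower (log2 change -8.39 ± 0.15 SE, limma adjusted p 1.58e-07) and Ryr1 220.9-fold lower (-5.18 ± 0.10, 1.66e-07). Cacna1s was 377.2-fold lower (-4.87 ± 0.09, limma adjusted p 1.49e-07) and Casq1 188.9-fold lower (-4.70 ± 0.10, 2.58e-07).

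Casq2 was 64.8-fold lower in hypoxic than in normoxic DM (log2 change -5.66 ± 0.39 SE, limma adjusted p 3.09e-05), with -6.34 when hypoxic DM replicate B was left out and -4.97 without replicate A. Jph2 was 17.0-fold lower (-4.00 ± 0.37, limma adjusted p 0.000118), with -4.66 and -3.34 under the same omissions. Jph1 was 16.7-fold lower (-3.28 ± 0.14, limma adjusted p 3.94e-06). Atp2a2 was 7.56-fold lower (-2.90 ± 0.11, limma adjusted p 2.25e-06) and Ryr3 7.41-fold lower (-1.84 ± 0.18, 0.000157). For Trdn the ratio of depth-scaled fragments was 363 (exact binomial 95% interval 64.7 to 14374), with a log2 change of -1.68 ± 0.09 (SE, limma adjusted p 1.22e-05). Myotube markers moved with these genes (6050 and 6077 FPKM summed in normoxic DM, 14.8 and 8.73 in hypoxic DM), and their part in the result was not tested.

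The oxygen levels were also compared in growth medium. There 4 of the 10 genes fell at 2% oxygen (Ryr1, Ryr3, Atp2a1 and Atp2a2) and none rose, against 28.0% called lower and 13.5% called higher of all genes tested. The median log2 change was -0.57, beside -0.14 over all genes, and -1.30 without the added 1. Atp2a1 was 12.7-fold lower in mean FPKM (log2 change -1.82 ± 0.15 SE, limma adjusted p 0.000297) and Ryr1 18.5-fold lower (-0.70 ± 0.10, 0.00218). Ryr3 was 2.32-fold lower (-0.84 ± 0.18, limma adjusted p 0.0109), a call lost without hypoxic GM replicate A or B (0.0653 and 0.0551). Atp2a2 was 1.61-fold lower (-0.67 ± 0.11, limma adjusted p 0.0036). Myoblast and myotube markers were also lower at 2% oxygen in GM. The 5 myoblast markers (Myod1, Myf5, Des, Cdh15 and Msc) summed to 466 and 388 FPKM at 21% and to 108 and 115 FPKM at 2% oxygen, and the 5 myotube markers to 29.3 and 22.4 and to 2.39 and 3.02 FPKM. Their part in the result was not tested.

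The other 6 genes did not pass in growth medium. Libraries at 2% oxygen lay below those at 21% oxygen for Cacna1s, Casq1, Casq2 and Jph2, above them for Jph1, and overlapped with them for Trdn. Jph2 had a 2.17-fold lower mean (log2 change -1.03 ± 0.37 SE, limma adjusted p 0.0655), Casq2 a 3.77-fold lower mean (-0.47 ± 0.39, 0.375) and Casq1 a 3.14-fold lower mean on 2 to 12 fragments a library (-0.23 ± 0.10, 0.114). Cacna1s was at least 3.63-fold lower with the hypoxic libraries set to 3 fragments (log2 change -0.13 ± 0.09 SE, limma adjusted p 0.284). With only the 4 GM libraries fitted, 8 of the 10 passed as lower, which added Jph2 (limma adjusted p 0.00343), Casq2 (0.00692), Cacna1s (0.0291) and Casq1 (0.0447). Leaving out hypoxic DM replicate A or B cannot move the log2 changes of Jph2 and Casq2 here (-1.03 and -0.47), so it is no check of them. It takes the spread of hypoxic DM out of the fit. Cacna1s and Casq1 also passed with a pseudocount of 0.1 (limma adjusted p 0.0135 and 0.0359).

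Whether the response to differentiation medium itself depended on oxygen was tested with the interaction, the log2 change at 2% oxygen minus that at 21% oxygen. It was negative and passed the limma threshold for all 10 genes, against 18.7% called negative and 35.4% called positive of all genes tested. The median was -3.97, beside 0.27 over all genes, and -4.41 without the added 1. Ryr1, Cacna1s, Casq1 and Trdn passed the expression filter through normoxic DM alone, which favoured a negative interaction for them. On the log2(FPKM + 1) scale the values were largest for Atp2a1 (-6.57 ± 0.22 SE, limma adjusted p 3.33e-06), Casq2 (-5.19 ± 0.55, 0.000409) and Cacna1s (-4.74 ± 0.12, 2.05e-06). That order depends on the added 1: without it, and with values under 3 fragments set to that level, the interaction was -6.72 for Cacna1s, -6.22 for Casq1, -6.08 for Atp2a1, -5.76 for Trdn and -4.41 for Casq2. The smallest fitted value was that of Ryr3 (-1.00 ± 0.26, limma adjusted p 0.0159), which was lost without normoxic DM replicate B (0.0643) or hypoxic GM replicate B (0.0555). These comparisons share libraries: normoxic DM enters 3 of the 5, and each of the other groups enters 3 as well.

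**Figure D3:**
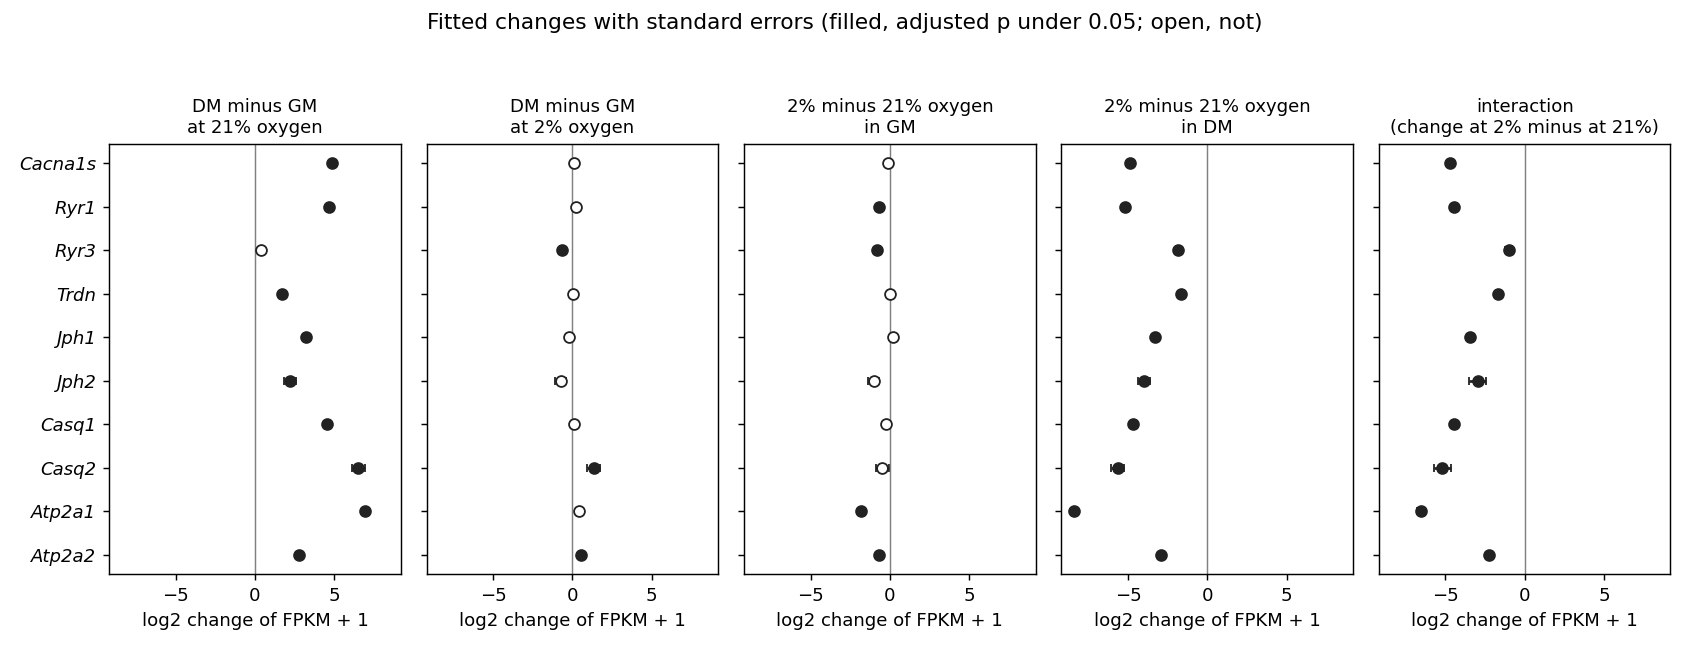
Fitted log2 changes of FPKM + 1 with standard errors for the 10 genes in the 5 comparisons, filled where the limma adjusted p is under 0.05. Changes with differentiation medium lie between 0.35 and 6.96 at 21% oxygen and between -0.75 and 1.34 at 2% oxygen, and every interaction value is negative.

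Shares within paralog pairs put normoxic DM above every other group for Atp2a1 and Ryr1. Among the lower groups, hypoxic GM overlapped hypoxic DM for Atp2a1, and normoxic GM overlapped hypoxic DM for Ryr1. Some groups also overlapped for Casq1 and Jph1. Atp2a1 was 1.08% and 0.908% of the summed FPKM of Atp2a1 and Atp2a2 in hypoxic GM and was at 2.33% and 1.04% in hypoxic DM. Ryr1 was 3.15% and 1.41% of its pair with Ryr3 in hypoxic GM and 26.1% and 19.3% in hypoxic DM. Jph1 was 5.75% and 6.99% of its pair with Jph2 in normoxic GM, 18.2% and 18.4% in normoxic DM, 16.9% and 14.0% in hypoxic GM and 26.5% and 15.6% in hypoxic DM. Casq1 was 28.3% and 34.9% of its pair in normoxic GM, 21.7% and 52.5% in hypoxic GM, and 11.2% and 5.21% in hypoxic DM, from few fragments in all of these. Shares of 2 libraries against 2 cannot reach an exact permutation p under 0.05 and are given as descriptions.

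**Figure D4:**
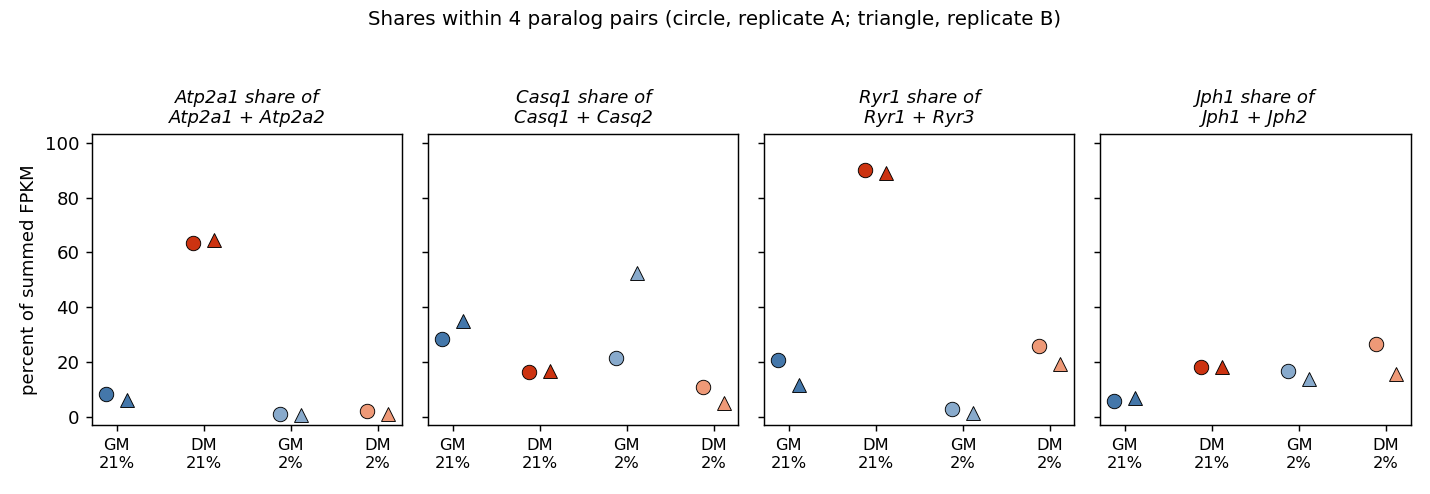
Share of the first-named gene in the summed FPKM of 4 paralog pairs, in percent, for each library (circles, replicate A; triangles, replicate B). Atp2a1 and Ryr1 form most of their pairs in normoxic DM alone (63.6% and 64.6%, 89.9% and 89.0%), whereas Casq1 stays at 16.3% and 16.7% of its pair there.

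The wider calcium handling pathway was described with 7 lists of 88 genes in all, 69 of which passed the expression filter. With differentiation medium at 21% oxygen 39 of the 69 rose and 18 fell, against 25.5% and 41.0% of all genes tested. At 2% oxygen 9 rose and 16 fell, against 23.3% and 17.6% of all genes. That count of 25 at 2% oxygen was 15 and 13 without hypoxic GM replicate A and B. Between oxygen levels in differentiation medium, 17 of the 69 were higher and 40 lower at 2% oxygen, against 37.5% and 27.7% of all genes. In growth medium 12 were higher and 29 lower (13.5% and 28.0% of all genes), a count of 41 that was 27 without hypoxic GM replicate B. The interaction was positive for 12 and negative for 35 (35.4% and 18.7% of all genes). The counts of single lists below are to be read against the same shares. The median log2 change of the 69 was 0.58 at 21% oxygen and 0.02 at 2% oxygen.

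Partners of the voltage sensor split by subunit. Of 7 tested genes of that list, 5 rose and 2 fell with normoxic DM, and none rose and 6 fell at 2% oxygen. Cacnb1, the skeletal beta subunit that couples the sensor to Ryr1, went from 7.01 and 4.79 FPKM in normoxic GM to 148 FPKM in both normoxic DM libraries (log2 change 4.45 ± 0.17 SE, limma adjusted p 2.87e-06). It fell from 5.56 and 5.36 FPKM in hypoxic GM to 1.39 and 1.97 FPKM in hypoxic DM (-1.28 ± 0.17, limma adjusted p 0.00217). Cacng1, the gamma subunit, was at 80.8 and 67.1, then 427 and 413 FPKM at 21% oxygen and at 31.8 and 31.1, then 10.3 and 14.0 FPKM at 2% oxygen (log2 changes of 2.50 ± 0.15 and -1.32 ± 0.15, limma adjusted p 1.67e-05 and 0.00118). Unlike Cacna1s, both subunits were thus clearly present in growth medium. Stac3, which the sensor needs to reach the tubule, rose with normoxic DM (2.71 ± 0.10, limma adjusted p 2.47e-06). Its fall at 2% oxygen (-0.33 ± 0.10, limma adjusted p 0.0409) was lost in 10 of the 16 alternatives tried. Cacna2d1 rose with normoxic DM (0.51 ± 0.16, limma adjusted p 0.0304), a call lost without normoxic GM replicate A (0.157), normoxic DM replicate A (0.101) or normoxic DM replicate B (0.137), and fell at 2% oxygen (-1.12 ± 0.16, 0.0028). Cacnb3, a beta subunit of other tissues, had the largest fitted fall of the list on the log2(FPKM + 1) scale at 21% oxygen (-1.56 ± 0.11, limma adjusted p 3.33e-05). Cacna1c, the cardiac sensor, was under the filter, at no more than 0.00655 FPKM.

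Among 15 tested release channels and modulators, 5 rose and 7 fell with normoxic DM, and 4 rose and 2 fell at 2% oxygen. These counts lie near the shares of all genes (25.5% and 41.0% at 21% oxygen, 23.3% and 17.6% at 2%). The 5 that rose are proteins of the reticulum. Srl (sarcalumenin) changed by 5.51 ± 0.13 (SE, limma adjusted p 3.70e-07) and Hrc, a calcium-binding protein of the lumen, by 4.80 ± 0.10 (3.03e-07). Tmem38a and Tmem38b, the TRIC cation channels, changed by 2.92 ± 0.12 and 2.77 ± 0.10 (limma adjusted p 3.74e-06 and 1.81e-06). Jsrp1, a triad protein that binds the sensor and calsequestrin, rose by 2.70 ± 0.14 (limma adjusted p 8.48e-06). In growth medium it was lower at 2% oxygen, going from 22.8 and 17.6 FPKM to 3.30 and 3.94 FPKM (log2 change -2.19 ± 0.14 SE, limma adjusted p 0.000105). The fall of Fkbp1a at 21% oxygen changed sign after median-of-ratios scaling, the only called value of the 69 genes that did so under any alternative.

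Itpr3, an inositol trisphosphate receptor and so a release channel of a kind found in most cells, was at 26.2 and 27.0 FPKM in normoxic GM and 6.31 and 6.05 FPKM in normoxic DM (log2 change -1.94 ± 0.09 SE, limma adjusted p 6.36e-06), against 34.1 and 36.8, then 26.9 and 23.6 FPKM at 2% oxygen. Between oxygen levels in DM it was higher at 2% oxygen (1.87 ± 0.09, limma adjusted p 6.85e-06), with an interaction of 1.47 ± 0.13 (limma adjusted p 0.000188). Itpr2 fell with normoxic DM (-0.87 ± 0.28, limma adjusted p 0.0308), a call lost after median-of-ratios (0.105) or upper-quartile scaling (0.0694), without an expression filter (0.0551) and without any single normoxic or hypoxic GM or normoxic DM library (0.0528 to 0.153). Itpr1 did not pass (-0.27 ± 0.15, limma adjusted p 0.149). Asph, the gene of junctin, junctate and an aspartyl hydroxylase, did not pass with DM at 21% oxygen (-0.03 ± 0.13, limma adjusted p 0.853, and above 0 after either rescaling). It rose at 2% oxygen from 21.4 and 23.6 to 56.9 and 52.0 FPKM in GM (log2 change 1.24 ± 0.13 SE, limma adjusted p 0.000738) and from 23.3 and 20.7 to 100.4 and 78.1 FPKM in DM (1.96 ± 0.13, 3.05e-05). The counts of Asph do not separate its products. Ryr2, the cardiac release channel, was at or under 0.00819 FPKM in every library.

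Triad and T-tubule genes rose with normoxic DM in 5 of 7 cases and fell in 1, and at 2% oxygen 2 rose and none fell. Cav3, the muscle caveolin, had the largest rise, from 0.196 and 0.0503 to 90.6 and 84.9 FPKM (log2 change 6.31 ± 0.11 SE, limma adjusted p 1.82e-07). It was at 0 in hypoxic GM and at 0.136 and 0.0716 FPKM in hypoxic DM. Speg, a kinase of the triad, fell (-0.88 ± 0.24, limma adjusted p 0.0164), a call lost without normoxic GM replicate A (0.0921), normoxic DM replicate A (0.0612) or normoxic DM replicate B (0.0929). Jph3 and Jph4, the junctophilins of neurons, were under the filter, at no more than 0.0736 FPKM. Sypl2 (mitsugumin 29, a T-tubule protein) was detected in normoxic DM alone, at 0.871 and 0.958 FPKM.

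Of 6 tested genes for other pumps, regulators and lumenal buffers, 4 rose with normoxic DM and none fell, and 3 rose at 2% oxygen. Atp2a3, the third SERCA gene, did not follow Atp2a1 and Atp2a2 in growth medium. It was at 0.216 and 0.288 FPKM in normoxic GM and 2.60 and 2.17 FPKM in hypoxic GM (log2 change 1.43 ± 0.13 SE, limma adjusted p 0.000336), while both other SERCA genes fell there. It reached 25.6 and 26.4 FPKM in normoxic DM (4.43 ± 0.13, limma adjusted p 7.85e-07) and 6.26 and 5.10 FPKM in hypoxic DM, where the rise over hypoxic GM passed too (0.98 ± 0.13, limma adjusted p 0.00184). Sarcolipin (Sln) and phospholamban (Pln), both SERCA inhibitors, were under the filter. Sln was detected in normoxic DM alone (0.201 and 0.963 FPKM), and Pln in normoxic DM replicate B alone (0.0936 FPKM). Another regulator of the list, Mrln (listed as 2310015B20Rik), was present. It went from 11.3 and 14.6 to 16.8 and 23.0 FPKM with DM at 21% oxygen (log2 change 0.58 ± 0.18 SE, limma adjusted p 0.0269). At 2% oxygen it went from 1.64 and 1.95 to 4.74 and 4.32 FPKM (0.99 ± 0.18, limma adjusted p 0.0065).

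Store-operated entry, export and mitochondrial uptake showed 5 rises and 3 falls among 12 tested genes with normoxic DM, and no rise and 2 falls at 2% oxygen. Falls at 2% oxygen were near the 17.6% of all genes. Stim1, the store sensor, and Orai1, the surface channel it opens, both rose at 21% oxygen (1.47 ± 0.18 and 1.71 ± 0.12, limma adjusted p 0.000437 and 4.07e-05), while Orai2 had the largest fitted fall of the list (-0.99 ± 0.16, 0.00146). Interactions of Stim1 and Orai1 were -1.23 ± 0.26 and -1.44 ± 0.18 (limma adjusted p 0.00703 and 0.000734). Genes of membrane excitability rose in 10 of 11 cases with normoxic DM and in none at 2% oxygen, where 2 fell, and 10 of the 11 were lower in hypoxic than in normoxic DM. Of 11 calcium-dependent kinase and phosphatase genes, 5 rose and 4 fell at 21% oxygen and none rose and 4 fell at 2% oxygen. Camk2a had the largest fitted rise (3.82 ± 0.09, limma adjusted p 3.85e-07). The calcineurin regulator Rcan2 fell at both oxygen levels, by 2.45 at 21% oxygen (SE 0.10, limma adjusted p 3.42e-06) and by 2.59 at 2% oxygen (SE 0.10, 6.17e-05).

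**Figure D5:**
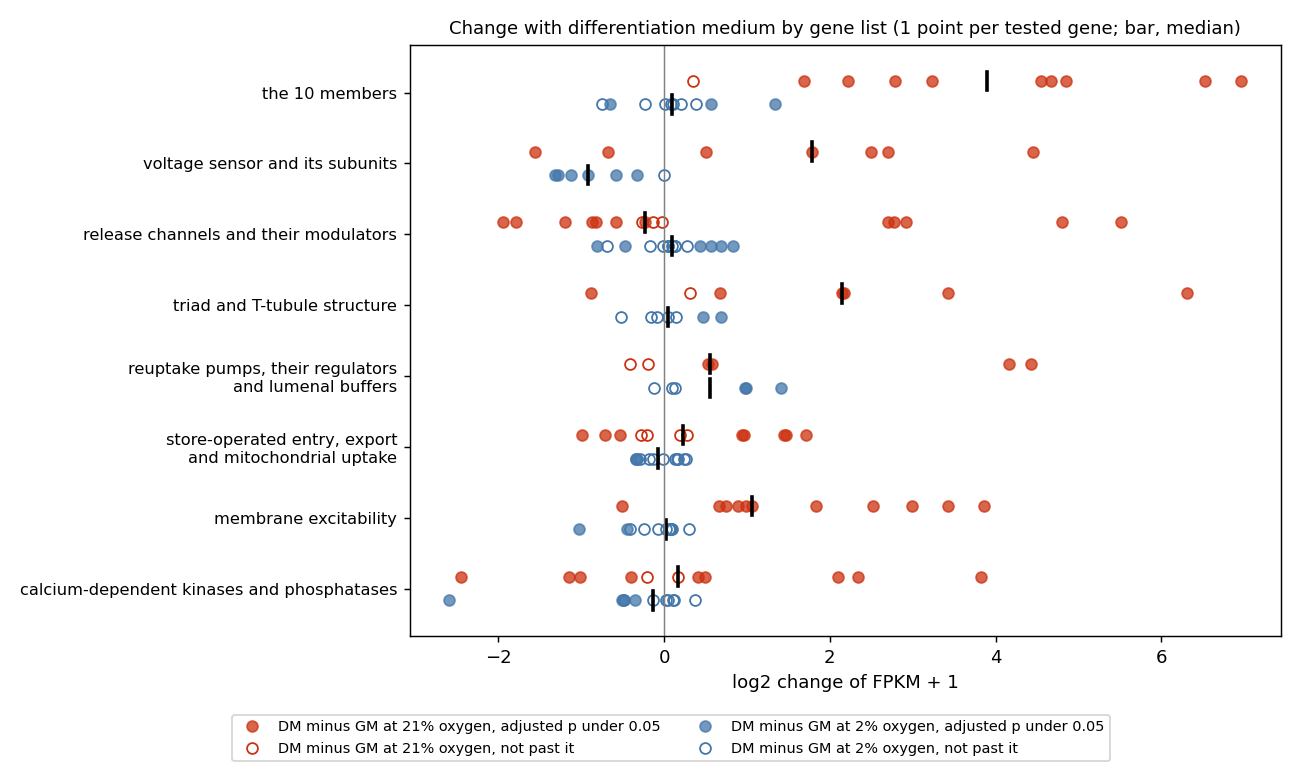
Log2 change of FPKM + 1 with differentiation medium for each tested gene of the 10 members and the 7 pathway lists, in red at 21% oxygen and in blue at 2% oxygen, filled where the limma adjusted p is under 0.05, with a bar at the median. The members' median is 3.89 at 21% and 0.10 at 2% oxygen, while the voltage sensor partners go from a median of 1.78 to -0.91.

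Genes whose profiles over the 8 libraries lay near those of 3 of the members were found by the distance between mean-centred log2(FPKM + 1) values. Close to Ryr1 were Zbp1 (distance 0.36 on the log2 scale) and Trim63 (0.39), the muscle ubiquitin ligase MuRF1. Trim63 was at 0.295 and 0.228 FPKM in normoxic GM, 36.9 and 37.8 FPKM in normoxic DM, 0 in both hypoxic GM libraries and 0.0769 and 0.0405 FPKM in hypoxic DM. Nearest to Atp2a2 were Tmem38a (0.42), Plet1 (0.47) and Stat2 (0.49). Casq2, with its separated hypoxic DM replicates, had no neighbour as close, and its nearest were Ankrd1 (1.16), Pygm (1.26) and Slc2a6 (1.27). Ankrd1 was also higher in replicate B, at 29.4 and 73.0 FPKM in hypoxic DM replicates A and B. These are descriptions over 8 libraries that share their groups.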

How the data were processed

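Per the labels, RNA was isolated with Trizol and sequenced as stranded total RNA. The submitters' processing notes name STAR 2.5.1b, Cufflinks 2.2.1 and build mm9, without their roles. The authors deposited gene-level FPKM values, which were used as given, and the annotation and any scaling between libraries are not given in the sources used here. Steps between low values gave whole fragments for 6 of the 10 genes (largest deviation 0.00113 of a fragment, under 250 fragments).

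The 12389 genes whose mean reached 1 FPKM in some group entered 1 fit of all 8 libraries on log2(FPKM + 1) in limma 3.58.1, run in R 4.3.3, with a trended prior, 4 group means and 5 two-sided contrasts (4 residual and 2.61 prior degrees of freedom). A call is a Benjamini-Hochberg adjusted p under 0.05 over all genes tested. Simulated data were made for DM against GM at 21% oxygen (12389 genes), with 67, 67 and 66 genes set to change by 1, 2 and 4 on the log2 scale. The fit recovered 92.5%, 97.0% and 98.5% of these, with 12 false among 204 calls. Changed genes were drawn from those with higher mean levels, and falls were made smaller where the mean level was low. Far fewer genes changed than were called in the real libraries. The rates therefore do not cover low genes such as Ryr1, Cacna1s, Casq1 and Trdn, or the share of false calls in the real libraries. Intervals and the 3-fragment floor cover counting error only. The alternatives were another pseudocount, expression filter or scaling, other sets of libraries, a replicate block, robust moderation and each library left out.

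The 10 genes, the lists and the motifs were chosen with earlier results of these data known. Named pathway genes are fixed partners of the 10 and the largest rise and fall of each list at 21% oxygen, and some genes that the rules name are not reported here. Promoter windows are from RefSeq GRCm38.p6 and were not mapped to mm9.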

Additional observations from a re-analysis of the deposited data

Results flagged for a closer look

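For all 10 genes the response to differentiation medium differed between the 2 oxygen levels by the test of the difference itself, limma's interaction term. A negative value means a smaller rise or a larger fall at 2% oxygen. Ryr1, Cacna1s, Casq1 and Trdn were tested only because they are high in normoxic DM. The filter thus favoured a negative value for these genes. The log2 interaction was -6.57 for Atp2a1, -5.19 for Casq2, -4.74 for Cacna1s, -4.48 for Ryr1 and -4.47 for Casq1 (limma adjusted p 3.33e-06, 0.000409, 2.05e-06, 3.03e-06 and 3.23e-06). It was -3.46 for Jph1, -2.97 for Jph2, -2.23 for Atp2a2, -1.67 for Trdn and -1.00 for Ryr3 (limma adjusted p 3.51e-05, 0.0035, 7.24e-05, 0.000129 and 0.0159). The direction was negative for each gene with either library of any group left out. Groups of 2 libraries are too small for a test of single libraries that stand apart.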

How the results depend on the processing

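Of 780 recomputed values of the 10 genes (50 results under their alternatives), 740 kept their direction and side of the threshold. A further 21 lost the call, 19 gained it and none took the opposite direction, and 35 of the 50 results never changed. Many of the alternatives could not change a direction, so its stability there says nothing. Other filters, robust moderation, a replicate block, fitting only the libraries compared or omitting a library outside the comparison leave the log2 change itself unaltered. Values that became exactly 0 were counted as kept, as for Trdn with DM at 2% oxygen without hypoxic DM replicate B. No call changed for 2% against 21% oxygen in DM. With DM at 2% oxygen the 3 members called became 6 at a pseudocount of 0.1, 1 without an expression filter and 0 to 6 with 1 library left out (0 without either hypoxic GM library, 1 without either normoxic DM library and 6 without hypoxic DM replicate B). With 2% oxygen in GM the 4 called became 8 with only the libraries compared. Without the added 1, and with values under 3 fragments set to that level, the members' medians were 5.91, 0.53, -1.30, -6.14 and -4.41 (DM at 21%, DM at 2%, 2% oxygen in GM, in DM, interaction), against 3.89, 0.10, -0.57, -4.35 and -3.97. The cause was not tested for these changes.

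Median-of-ratios scaling took the share of higher among all calls from 38.4% to 53.6% (DM at 21%), 32.6% to 43.4% (2% oxygen in GM), 57.5% to 46.5% (2% oxygen in DM) and 65.5% to 47.3% (interaction), and upper-quartile scaling took the share in GM to 49.3% and that of the interaction to 53.6%. The median change of all genes in these 4 comparisons was 0.03, -0.04, -0.03 and -0.01 after median-of-ratios scaling. After upper-quartile scaling it was -0.08, 0, 0.10 and 0.07. Members called with DM at 21% oxygen became 10 (Ryr3) after median-of-ratios scaling. Of all genes, 5073 were called with DM at 2% oxygen, 2867 with only the libraries compared and 2688 and 2501 without hypoxic GM replicate A and B. With 2% oxygen in GM, 5135 were called, or 2997 and 3083 under the same omissions.

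Same-lettered libraries showed no shared deviation: differences between A and B correlated across genes at -0.17 to 0.04 between groups. Whether the letters mark libraries prepared together cannot be told from this. With a replicate block 9, 3, 4, 10 and 10 members were called in the 5 comparisons, as without it, and 12 calls of the 69 pathway genes over the 5 comparisons were lost and none gained. Where 1 library was left out, its lone partner was assumed to vary like the other groups. Depth limits Trdn, Casq1 and Cacna1s outside normoxic DM, where a library held at most 13 fragments of each.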
